A study of Homo sapiens with 6 samples.

Results

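Genes of the interferon response and of RNA sensing were read one by one in TCam-2 cells, a cell line established from a seminoma, which is a germ cell tumour of the testis. The list held 38 genes, matched by symbol to 38 of the 62700 genes in the deposited table. The rule that lists them uses no measured value, but the list was chosen with earlier results of these data known. The question put to it was which of these genes are silent in TCam-2 cells and whether transduction moves them. The 3 groups had 2 libraries each: cells that were not transduced (WT), cells transduced with GFP_FLAG, a tagged green fluorescent protein (GFP), and cells transduced with RBMXL3_FLAG, a tagged RNA-binding protein of the RBMX family (RBMXL3). All 3 groups are the same line grown in the same serum-containing medium, and the labels name no interferon, virus or other stimulus. They do not give the vector, its promoter, the selection of transduced cells, whether a group is 1 clone, or the time from transduction to harvest. They also do not say that the replicates were separate cultures, so every p-value measures only the spread between these libraries, which may be technical.

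Cells recognise foreign nucleic acid with receptors in the cytoplasm. RIG-I (gene RIGI) and MDA5 (gene IFIH1) bind double-stranded or unusual RNA and signal through the mitochondrial protein MAVS, while cGAS (gene CGAS) binds DNA and signals through STING (gene STING1). Both routes activate the transcription factors IRF3 and IRF7, which switch on type I interferon genes. Secreted interferon then acts through its receptor, JAK kinases and a complex that contains STAT2 and IRF9, which binds the interferon-stimulated response element in the promoters of antiviral genes such as the IFIT, OAS, MX and ISG15 genes. Pluripotent and early germ cells are known for a muted interferon response.

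Depth was 17685680 to 29318007 recovered reads per library, with the RBMXL3 group at the low end. RBMXL3 itself had 0 reads in all 4 control libraries and 84 and 68 reads in the RBMXL3 libraries. All 10 seminoma markers examined passed the minimum of the test, with summed levels of 117780 to 135180 normalised reads over the 6 libraries, but single markers moved. In RBMXL3 against WT 5 of the 10 were called by limma (50%, beside 29.9% of all genes), 3 lower and 2 higher. The median change of the 10 was -0.25 (log2). KIT (-0.80) was among the lower, and DND1 (0.63) and POU5F1 (0.46) were the higher. RBMXL3 against GFP called KIT (-0.39) and LIN28A (-0.37) lower (20%, beside 20.9% of all genes). GFP against WT called KIT lower (-0.41) and DND1 higher (0.70), which is 20%, beside 3.67% of all genes. Of 3 embryonal carcinoma markers, GDF3 (0.72) and DNMT3B (0.37) were called higher in RBMXL3 against WT and SOX2 (0.61) in RBMXL3 against GFP, the last not by edgeR. Of the markers of white blood cells, CD3E and MS4A1 had 0 reads, PTPRC and LYZ had at most 1 read in a library, and CD14, under the minimum of the test, had 10.2 and 8.39 normalised reads in WT cells, 7.39 and 6.36 in GFP cells and 12.9 and 23.5 in RBMXL3 cells, highest in the RBMXL3 libraries. The 3 endothelial markers summed to 143 to 221, and the groups overlapped. The 4 fibroblast markers summed to 401 to 425 normalised reads in WT, 724 to 728 in GFP and 1319 to 1329 in RBMXL3. COL1A1, COL3A1 and LUM carried that increase, while DCN had at most 2 reads in a library. These seminoma, embryonal carcinoma, CD14 and fibroblast marker levels moved with the groups, and their part in the results on interferon genes was not tested. In bulk RNA, fewer cells that express a gene and less RNA of it per cell cannot be told apart.

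To show what the core of the response element looks like in genes of this list, 4 promoter stretches are printed from RefSeq (GRCh38.p14), each from 200 bases before the gene's start to the first 10 bases of the transcript. IFI6 was the list's largest rise in RBMXL3 cells, IFIT5 rose in RBMXL3 against GFP, IFITM3 was the most abundant member, and IFI44L had no read in any library. Capitals mark the core of the element, which was searched as GAAA, any 2 bases and GAAA, and which reads TTTC, any 2 bases and TTTC where it lies on the other strand. IFI6 lies on the minus strand (chr1:27672183-27672392), IFIT5 on the plus strand (chr10:89414368-89414577), IFITM3 on the minus strand (chr11:320851-321060) and IFI44L on the plus strand (chr1:78620248-78620457).
IFI6: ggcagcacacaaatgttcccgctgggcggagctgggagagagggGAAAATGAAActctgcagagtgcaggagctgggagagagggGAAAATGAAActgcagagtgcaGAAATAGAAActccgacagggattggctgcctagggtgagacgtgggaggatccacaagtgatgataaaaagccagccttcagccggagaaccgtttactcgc
IFIT5: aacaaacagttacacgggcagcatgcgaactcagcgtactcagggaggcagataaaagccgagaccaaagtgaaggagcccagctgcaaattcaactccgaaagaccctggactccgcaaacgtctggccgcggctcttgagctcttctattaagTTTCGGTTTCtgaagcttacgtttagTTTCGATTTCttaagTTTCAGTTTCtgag
IFITM3: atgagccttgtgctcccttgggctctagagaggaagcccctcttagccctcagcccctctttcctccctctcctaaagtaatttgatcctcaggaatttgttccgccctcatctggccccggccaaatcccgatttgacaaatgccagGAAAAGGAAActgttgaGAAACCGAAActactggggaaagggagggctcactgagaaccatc
IFI44L: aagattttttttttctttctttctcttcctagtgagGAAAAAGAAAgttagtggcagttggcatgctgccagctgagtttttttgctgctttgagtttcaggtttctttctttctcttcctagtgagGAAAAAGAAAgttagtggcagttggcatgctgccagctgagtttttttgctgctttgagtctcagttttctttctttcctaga

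The IFI6 and IFIT5 promoters held 3 matches each, and those of IFITM3 and IFI44L held 2 each. The motif was searched on both strands of the whole RefSeq promoter window, which runs from 250 bases before to 50 bases after the start, and overlapping matches were counted separately. Of the 38 genes, 27 had a promoter in that table, and 16 of these (59.3%) held a match, against 1195 of 27305 genes (4.38%) in the whole table. Genes of the list that passed the minimum of the test and genes that did not held it alike, at 10 of 17 (58.8%) and 6 of 10. A match is a description of letters and does not show that a factor binds there.

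Of the 38 genes, IFI44, IFI44L and OAS2 had 0 reads in all 6 libraries, which allows up to 3 reads in a library as a one-sided limit. With silence set at no more than 3 reads in every library, OASL and CGAS were silent too, which made 5 silent genes. A further 12 genes had more reads than that but stayed under the minimum of the test: IRF9, ISG15, IFI27, IFIT2, IFIT3, IFITM2, OAS1, RIGI, IFIH1, DHX58, STING1 and XAF1. The other 21 passed the minimum, which was 23.9 normalised reads in at least 2 libraries. A normalised read is a read count that the authors divided by a size factor of its library.

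**Figure D1:**
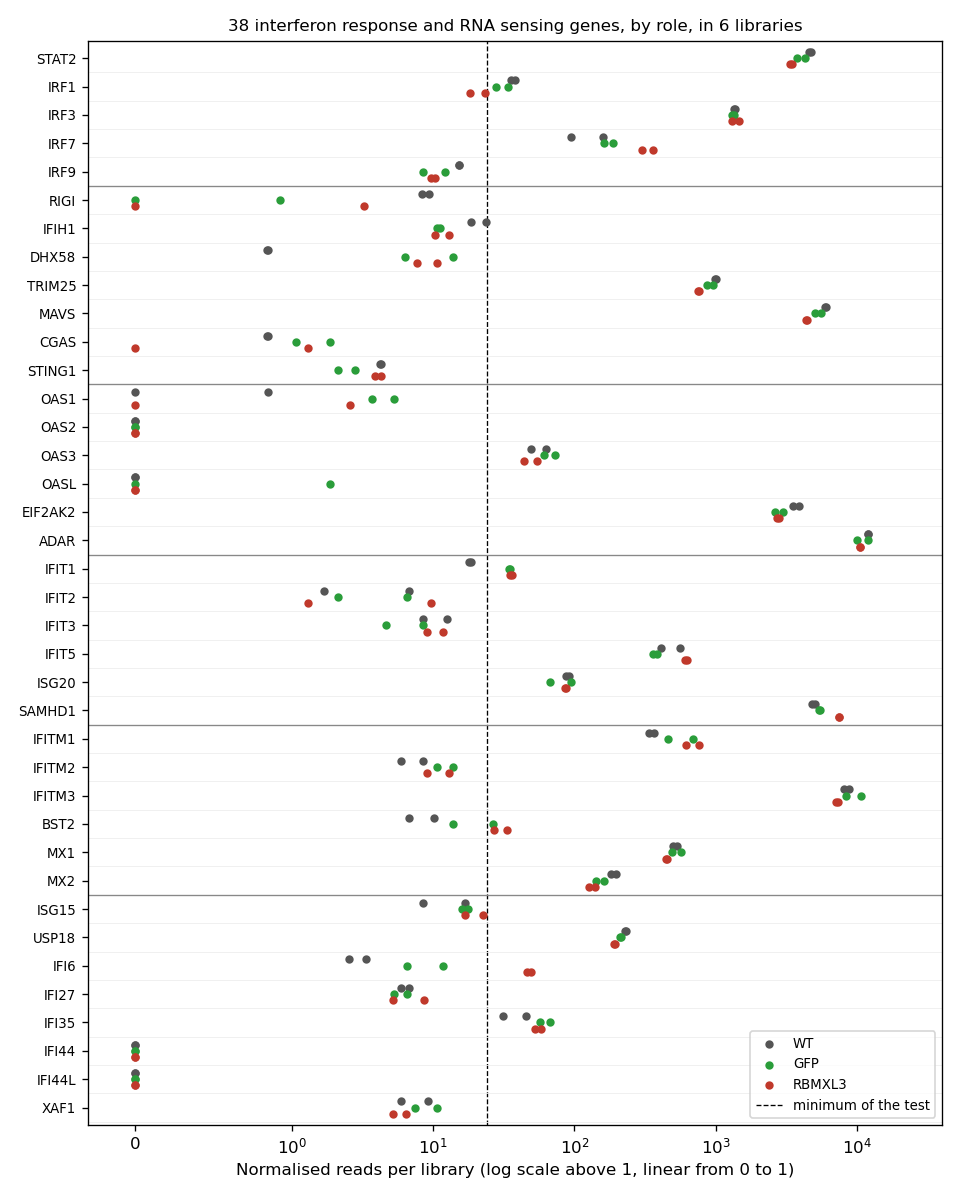
Normalised reads of each of the 38 genes in each of the 6 libraries, ordered by role with grey lines between roles; the horizontal axis is logarithmic above 1 and linear from 0 to 1, points are single libraries and the dashed line is the minimum of the test at 23.9 normalised reads. IFI44, IFI44L and OAS2 sit at 0 in every library, and IFITM3 and ADAR lie at the right edge.

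Levels of different genes were compared per length, as transcript abundance in TPM, which scales for length and library, summed over the transcripts of a gene. IFITM3 stood far above the rest with 992 to 1191 TPM over the 6 libraries, followed by IFITM1 with 119 to 244 TPM, and their ranges did not overlap. ADAR (72.8 to 97.8 TPM), IRF3 (69.5 to 114 TPM) and SAMHD1 (63.6 to 109 TPM) came next and overlapped one another. STAT2 (36.4 to 48.1 TPM) lay below these without overlap, EIF2AK2 (24.8 to 37.7 TPM) overlapped with both STAT2 and MAVS (20.95 to 28.2 TPM), and MAVS lay above TRIM25 (8.38 to 12.6 TPM). Summed TPM stayed under 1 in every library for 14 of the 38 genes. The abundant genes thus included the mediators STAT2, IRF3 and MAVS and the RNA-binding enzymes ADAR and EIF2AK2, and the genes at 0 or near it included OAS1, OAS2, OASL, IFIT2 and IFIT3.

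Among the transcription factors, IRF7 moved most. IRF7 (chr11:612553-615999, minus strand, GENCODE 29), the inducible factor that amplifies interferon production, measured 158 and 94.0 normalised reads in WT cells, 163 and 189 in GFP cells and 301 and 360 in RBMXL3 cells. Both RBMXL3 libraries were above all 4 control libraries, and the WT libraries lay below the GFP libraries. Fold changes are given on the scale log2(value + 1), where low genes move less than they would without the added 1. IRF7 rose by 0.83 ± 0.19 (SE) in RBMXL3 against GFP (limma adjusted p = 0.0102) and by 1.27 ± 0.19 against WT (limma adjusted p = 0.00061). The rise against WT passed the test under all 15 alternatives tried. Against GFP it was lost without RBMXL3 replicate 2 or with no filter on low values, with adjusted p of up to 0.101. At the transcript level, the form IRF7-207, with a coding length of 503 codons, had 2.72 and 3.19 TPM in WT cells, 3.67 and 4.67 in GFP cells and 6.16 and 6.68 in RBMXL3 cells.

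STAT2 (chr12:56341597-56360155, minus strand), the interferon-activated factor that partners with IRF9, measured 4574 and 4733 normalised reads in WT cells, 4252 and 3746 in GFP cells and 3337 and 3449 in RBMXL3 cells. The 3 groups did not overlap. STAT2 fell by 0.45 ± 0.10 (SE, log2) in RBMXL3 against WT (limma adjusted p = 0.005), but its change against GFP was -0.23 ± 0.10 with an adjusted p of 0.11. The fall rested on gene reads: summed TPM gave -0.07 against WT (adjusted p = 0.635) and 0.25 against GFP. It was also lost without either RBMXL3 library. IRF3, the constitutive factor downstream of MAVS and STING, stayed between 1297 and 1452 normalised reads in all libraries, and the groups overlapped. IRF1, an interferon-gamma-induced factor, had 38.1 and 35.2 normalised reads in WT cells, 27.7 and 33.9 in GFP cells and 23.2 and 18.2 in RBMXL3 cells, and no comparison of it passed the test. IRF9, the DNA-binding partner of STAT2, had 8 to 18 reads per library. In GENCODE 29, 48.4% of the IRF9 exon length overlaps another gene on the same strand, so its reads are uncertain.

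The cytoplasmic sensors were scarce while their adaptor was not. MAVS (chr20:3846799-3876123, plus strand) measured 5973 and 6040 normalised reads in WT cells, 5588 and 5007 in GFP cells and 4388 and 4407 in RBMXL3 cells, with no overlap of the groups. It fell by 0.45 ± 0.10 (SE, log2) in RBMXL3 against WT (limma adjusted p = 0.0047), and its change against GFP was -0.27 ± 0.10 (adjusted p = 0.0676). TRIM25, a ubiquitin ligase that acts in RIG-I signalling, measured 986 and 1002 normalised reads in WT cells, 964 and 862 in GFP cells and 761 and 749 in RBMXL3 cells. It fell by 0.39 ± 0.10 (SE, log2) against WT (limma adjusted p = 0.0156), with -0.27 ± 0.10 against GFP (adjusted p = 0.0901). The order of the groups was the same for both genes. In summed TPM, MAVS changed by -0.29 against WT (adjusted p = 0.112), and TRIM25 turned to 0.02 (adjusted p = 0.949). Both falls were lost without either RBMXL3 library, and that of TRIM25 also without either WT library.

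RIGI had 11 and 10 reads in WT cells, 1 and 0 in GFP cells and 0 and 3 in RBMXL3 cells. Both WT libraries were above all 4 transduced libraries. The pooled GFP to WT ratio of normalised reads was 0.0558, with a 95% exact interval of 0.00135 to 0.347, which covers counting error only, as do all such intervals and floors here. Summed TPM for RIGI did not show this order, with 1.70 and 0.255 in WT cells, 2.20 and 1.15 in GFP cells and 0.623 and 0.322 in RBMXL3 cells. The deposited gene reads of RIGI were 0 to 0.475 of what its TPM would give, so its level is uncertain.

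DHX58 (gene of LGP2, the relative of RIG-I and MDA5 that modulates both) had 1 and 1 reads in WT cells, 15 and 6 in GFP cells and 6 and 10 in RBMXL3 cells. All 4 transduced libraries were above both WT libraries. The pooled ratio was 12.3 for GFP against WT (95% exact interval 3.01 to 108) and 11.1 for RBMXL3 against WT (2.61 to 99.4). Summed TPM put the groups in that order as well, at 0.0899 and 0.022 in WT cells, 0.648 and 0.418 in GFP cells and 0.263 and 0.886 in RBMXL3 cells. IFIH1 had 28 and 22 reads in WT cells, 12 and 10 in GFP cells and 8 and 12 in RBMXL3 cells. Its pooled GFP to WT ratio was 0.515 (95% exact interval 0.297 to 0.867).

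None of RIGI, DHX58 and IFIH1 reached the minimum of the reported test. An edgeR quasi-likelihood fit without that minimum, added after the values were seen, called DHX58 higher in GFP against WT (adjusted p = 0.0132) and in RBMXL3 against WT (adjusted p = 0.00769). It called RIGI lower in GFP against WT (adjusted p = 0.0474) but not in RBMXL3 against WT (adjusted p = 0.138), and IFIH1 in neither (adjusted p = 0.291 and 0.239). The limma fit without a filter gave other calls: RIGI lower in RBMXL3 against WT (adjusted p = 0.0326), and neither RIGI (0.165) nor DHX58 (0.215) in GFP against WT. On the DNA side, CGAS had 0 to 2 reads and STING1 2 to 5 reads in a library, and no order of the groups could be read at this depth.

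**Figure D2:**
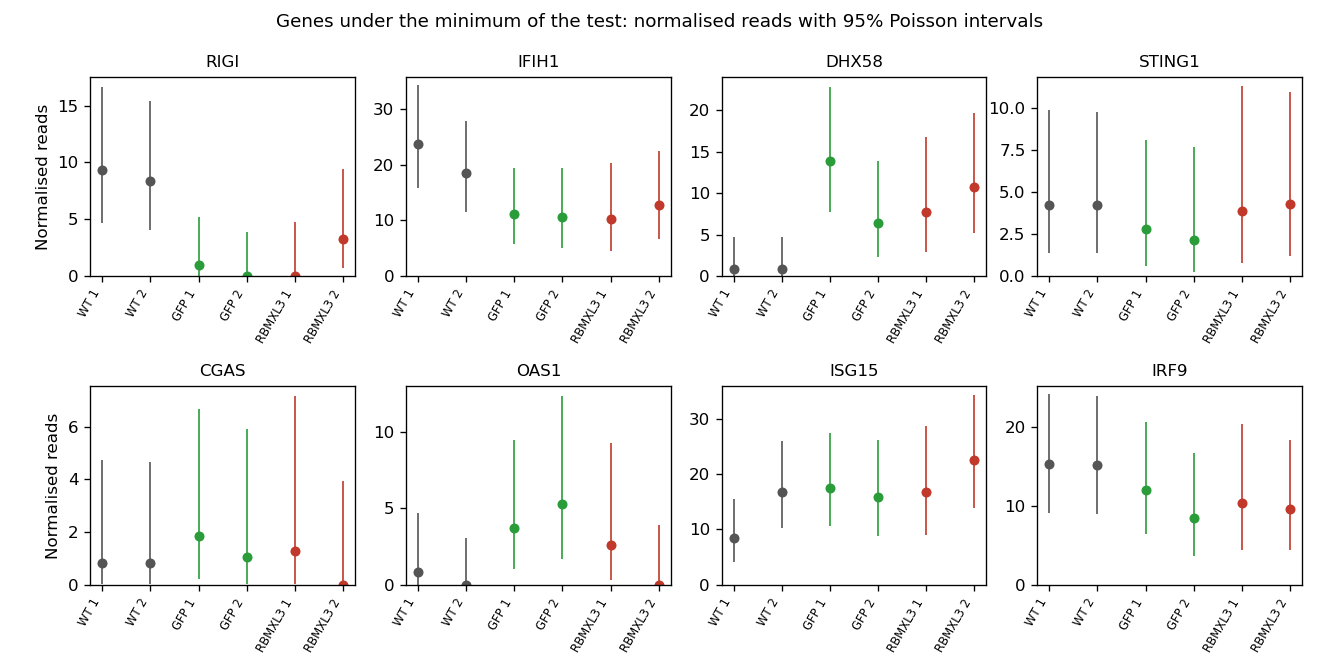
Normalised reads of 8 genes under the minimum of the test in each of the 6 libraries, with 95% exact Poisson intervals that cover counting error only; each panel has its own linear vertical axis from 0. The points of the WT libraries lie above the others for RIGI and below the others for DHX58, but some of their intervals overlap with those of transduced libraries. The intervals of CGAS and STING1 overlap in all libraries.

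The effectors that act on double-stranded RNA split by abundance. EIF2AK2 (chr2:37099210-37157065, minus strand), the gene of the kinase PKR that stops translation, measured 3866 and 3502 normalised reads in WT cells, 2618 and 3002 in GFP cells and 2737 and 2789 in RBMXL3 cells. Both WT libraries were above the other 4, and GFP and RBMXL3 overlapped. It fell by 0.41 ± 0.10 (SE, log2) in RBMXL3 against WT (limma adjusted p = 0.0104), whereas its change in GFP against WT was -0.39 ± 0.10 with an adjusted p of 0.0546. Summed TPM gave -0.46 for RBMXL3 against WT (adjusted p = 0.0562), and the call was also lost without WT replicate 1, without either RBMXL3 library and with no filter. Products of the OAS genes other than OASL make the activator of RNase L. OAS2 had 0 reads, and OASL had 2 reads in GFP replicate 1 and 0 elsewhere. OAS1 had 1 and 0 reads in WT cells, 4 and 5 in GFP cells and 2 and 0 in RBMXL3 cells. OAS3 had 43.8 to 73.0 normalised reads and no change that passed the test, but its summed TPM was 0 in 4 libraries and at most 0.196, so its level depends on the quantification.

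ADAR (chr1:154582057-154628013, minus strand), which edits adenosine to inosine in double-stranded RNA, had the most reads of the list. It measured 12008 and 11978 normalised reads in WT cells, 11996 and 9945 in GFP cells and 10588 and 10422 in RBMXL3 cells, and no comparison passed the test. ADAR is made as a constitutive nuclear form, p110, and a longer cytoplasmic form, p150, whose promoter is interferon-inducible. They were told apart here by coding length, with 3 longer coding transcripts summed as p150 and 5 shorter ones as p110. The p150 share of the summed TPM of both forms was 37.5% and 27.6% in WT cells, 28.6% and 35.4% in GFP cells and 21.9% and 21.6% in RBMXL3 cells. Both RBMXL3 libraries were below all 4 controls, with p150 at 20.6 and 20.96 TPM against 24.96 to 35.2 TPM in the controls. The transcript ADAR-201, a p110 form, had 43.6 and 47.2 TPM in RBMXL3 against 20.1 to 28.9 TPM in the controls. TPM keeps no depth and these shares were not tested.

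**Figure D3:**
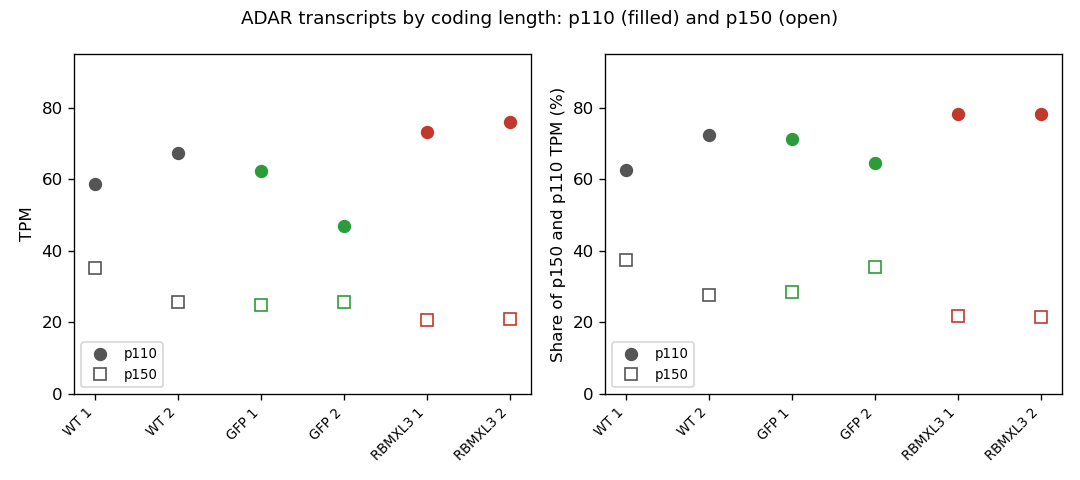
TPM of ADAR transcripts (left) and share of the summed p150 and p110 TPM in percent (right) in each of the 6 libraries, with p110 as filled circles and p150 as open squares, coloured by group. The p150 share is 21.9% and 21.6% in the RBMXL3 libraries and 27.6% to 37.5% in the 4 controls.

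Of the genes whose products bind or degrade nucleic acid, SAMHD1 and IFIT5 rose in RBMXL3 cells. SAMHD1 (chr20:36889773-36951901, minus strand), which removes deoxynucleotides and so restricts reverse transcription, measured 5011 and 4825 normalised reads in WT cells, 5459 and 5376 in GFP cells and 7465 and 7420 in RBMXL3 cells. The RBMXL3 libraries were above all controls and the groups did not overlap. SAMHD1 rose by 0.46 ± 0.09 (SE, log2) against GFP (limma adjusted p = 0.0053) and by 0.60 ± 0.09 against WT (limma adjusted p = 0.00072). The rise against WT passed the test under all 15 alternatives, and that against GFP was lost without either RBMXL3 library (adjusted p of up to 0.099). Its leading transcript, SAMHD1-221, had 86.2 and 86.4 TPM in RBMXL3 and 46.9 to 55.3 TPM in the controls.

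IFIT5 (chr10:89414586-89421001, plus strand), an RNA-binding member of the IFIT family, measured 555 and 409 normalised reads in WT cells, 359 and 385 in GFP cells and 605 and 623 in RBMXL3 cells. The WT libraries lay between the GFP and the RBMXL3 libraries. IFIT5 rose by 0.69 ± 0.14 (SE, log2) against GFP (limma adjusted p = 0.0054), and its change against WT was 0.35 ± 0.14 (adjusted p = 0.0752). The call was lost without RBMXL3 replicate 2 or with no filter, at an adjusted p of up to 0.0588. IFIT1, which binds RNA lacking the host cap methylation, had 17.8 and 18.5 normalised reads in WT cells, 34.2 and 35.0 in GFP cells and 34.8 and 36.4 in RBMXL3 cells. WT lay below both transduced groups, which overlapped. IFIT1 rose by 0.50 ± 0.17 (SE, log2) in RBMXL3 against WT (limma adjusted p = 0.0387), a call lost under 8 of 13 alternatives, while no WT library reached the minimum and IFIT1 was tested only through the groups where it is high. GFP against WT gave 0.48 ± 0.17 (adjusted p = 0.121). IFIT2 (1 to 9 reads) and IFIT3 (5 to 15 reads), neighbours of IFIT1 on chromosome 10, stayed under the minimum in every library. ISG20, a 3' exonuclease of RNA, stayed at 66.7 to 94.3 normalised reads with no change that passed the test.

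Among the genes that restrict viruses at membranes, IFITM1 and BST2 rose in RBMXL3 against WT and the most abundant one, IFITM3, fell in RBMXL3 against GFP. IFITM1 (chr11:313506-315272, plus strand), which blocks virus entry at the cell surface, measured 334 and 367 normalised reads in WT cells, 692 and 456 in GFP cells and 766 and 614 in RBMXL3 cells. Both WT libraries were below the other 4, and GFP overlapped with RBMXL3. IFITM1 rose by 0.92 ± 0.17 (SE, log2) in RBMXL3 against WT (limma adjusted p = 0.0021) under all 15 alternatives. Its change in GFP against WT was 0.65 ± 0.17 with an adjusted p of 0.0553. In GENCODE 29, 32.5% of its exon length overlaps IFITM2 on the same strand, and its reads were 0.195 to 0.272 of what its TPM would give. IFITM1 had 119 and 127 TPM in WT cells, 172 and 154 in GFP cells and 244 and 220 in RBMXL3 cells, with no overlap of the groups, and in TPM it also rose against GFP (0.51, limma adjusted p = 0.0386).

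IFITM3 (chr11:319669-327537, minus strand), which acts in endosomes, measured 8822 and 8154 normalised reads in WT cells, 10702 and 8347 in GFP cells and 7368 and 7157 in RBMXL3 cells. The RBMXL3 libraries were the lowest, and WT and GFP overlapped. It fell by 0.38 ± 0.12 (SE, log2) in RBMXL3 against GFP (limma adjusted p = 0.0398), but this was lost under 8 of 15 alternatives, among them summed TPM (-0.10, adjusted p = 0.598) and leaving out any library but GFP replicate 2. BST2, gene of tetherin, which holds virus particles at the cell surface, had 6.77 and 10.1 normalised reads in WT cells, 13.9 and 26.5 in GFP cells and 33.5 and 26.7 in RBMXL3 cells. WT lay below both transduced groups. GFP replicate 2 and RBMXL3 replicate 2 had 25 reads each, so GFP and RBMXL3 were apart there only by the size factors. BST2 rose by 0.74 ± 0.20 (SE, log2) in RBMXL3 against WT (limma adjusted p = 0.0144), a call lost under 5 of 14 alternatives, which were no filter and leaving out any 1 of the WT or RBMXL3 libraries. BST2 too reached the minimum only through the groups where it is high, with no WT library at it. MX2, a dynamin-like GTPase that acts against retroviruses, fell by 0.43 ± 0.14 in RBMXL3 against WT (limma adjusted p = 0.0363), from 196 and 181 normalised reads to 127 and 140, with 161 and 142 in GFP. That call was lost under 8 of 15 alternatives, summed TPM among them (-0.50, limma adjusted p = 0.2625). Summed TPM of MX2 was 1.21 and 1.60 in WT cells, 1.37 and 2.87 in GFP cells and 0.664 and 0.732 in RBMXL3 cells. The deposited gene reads of MX2 were 3.98 to 14.95 times what its TPM would give, so the level of MX2 is uncertain. Its relative MX1 stayed at 444 to 564 normalised reads with no change that passed the test, and IFITM2 had 7 to 15 reads per library.

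IFI6 (chr1:27666061-27672218, minus strand), a mitochondrial and endoplasmic reticulum protein with antiviral action, had 3 and 4 reads in WT cells, 7 and 11 in GFP cells and 38 and 43 in RBMXL3 cells. These were 2.54 and 3.36, 6.47 and 11.7, and 48.9 and 46.0 normalised reads. The groups did not overlap, and both RBMXL3 libraries were far above all controls. IFI6 rose by 1.12 ± 0.18 (SE, log2) against GFP (limma adjusted p = 0.0018) and by 1.41 ± 0.18 against WT (limma adjusted p = 0.00024). As pooled ratios of normalised reads, which carry no pseudocount, this was 5.33 against GFP (95% exact interval 3.17 to 9.43) and 16.04 against WT (7.44 to 41.2). Both rises passed the test under the 12 alternatives that gave a value, summed TPM among them. IFI6 reached the minimum through the RBMXL3 group alone and could not be tested without either RBMXL3 library or with a mean of at least 5. Its change in GFP against WT was 0.29 ± 0.18 (SE, log2, limma adjusted p = 0.361). The pooled GFP to WT ratio was 3.01 (95% exact interval 1.20 to 8.53).

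The other genes of this kind did not follow IFI6. ISG15, the ubiquitin-like modifier, had 10 and 20 reads in WT cells, 19 and 15 in GFP cells and 13 and 21 in RBMXL3 cells, which overlapped. USP18, which removes ISG15 from proteins and dampens the receptor, measured 232 and 229 normalised reads in WT cells, 211 and 213 in GFP cells and 192 and 194 in RBMXL3 cells, groups that did not overlap, but no comparison passed the test (-0.23 ± 0.13 against WT, limma adjusted p = 0.188). IFI35 had 31.3 and 45.3 normalised reads in WT cells, 66.5 and 57.2 in GFP cells and 52.8 and 57.7 in RBMXL3 cells, and no comparison passed (GFP against WT 0.47 ± 0.17, adjusted p = 0.139). IFI27 (4 to 8 reads) and XAF1 (4 to 11 reads), a pair of genes strongly induced by interferon in many cell types, stayed under the minimum.

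Transduction with GFP moved none of the 21 tested genes past the threshold against WT. That is 0 of 21 by limma, beside 3.67% of all 14292 genes tested. At an unadjusted p under 0.05 there were 8 of 21, beside 22.3% of all genes. With edgeR on the recovered reads the count was 0, beside 3.32% of all genes. With DESeq2 it was 2, IFITM1 higher and EIF2AK2 lower, beside 4.86%. Without GFP replicate 1 the count was 1 (STAT2 lower), beside 8.01% of all genes, and without GFP replicate 2 it was 3 (IFITM1 and IFITM3 higher, EIF2AK2 lower), beside 19.5%. The groups did not overlap in 15 of 21 genes, beside 48.5% of all genes tested, and the median log2 change was -0.03, beside -0.01 over all genes. The 17 genes under the minimum are outside these counts. The edgeR fit without a filter, which gave a value for 35 of the 38 genes, called 4 (DHX58 and IFITM1 higher, RIGI and EIF2AK2 lower), beside 3.76% of 30989 genes.

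RBMXL3 against GFP, the contrast between transduced groups, called 5 of 21 genes: IFI6, IRF7, IFIT5 and SAMHD1 higher and IFITM3 lower. That is 23.8% of the tested genes, beside 20.9% of all genes tested (10.5% higher and 10.4% lower), a share near the background. Of the 17 tested genes that reached the minimum in every group, 4 were called, and the share of all genes under that restriction was not computed. With the filter set at a mean of at least 5, 4 of 14 (28.6%) were called, beside 23.9% of all genes. The median change was -0.06, beside 0.00 over all genes. The groups did not overlap in 14 of 21 genes, beside 61.7% of all genes tested. The count was 0 without RBMXL3 replicate 2 (beside 4.81% of all genes), 2 without RBMXL3 replicate 1 (5.97%) and 8 without GFP replicate 2 (30.3%), where MAVS, TRIM25 and STAT2 were also lower. The counts moved in the same order as the shares of all genes.

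RBMXL3 against WT, the contrast that includes transduction itself, called 11 of 21 genes: 6 higher (IFI6, IRF7, IFITM1, BST2, SAMHD1 and IFIT1) and 5 lower (MAVS, STAT2, EIF2AK2, TRIM25 and MX2). That is 52.4%, beside 29.9% of all genes tested, with 14.6% higher and 15.3% lower. IFI6, BST2 and IFIT1 were tested only because they were high outside WT, so the minimum itself favoured their rise. Of the 17 genes that reached the minimum in every group, 8 (47.1%) were called, 3 higher and 5 lower, again without a share of all genes under that restriction. With the filter set at a mean of at least 5, 8 of 14 (57.1%) were called, beside 32.3% of all genes. The median change was -0.13, beside -0.01 over all genes. The groups did not overlap in 18 of 21 genes, beside 73.4% of all genes tested. The count was 3 (SAMHD1, IRF7 and IFITM1) without either RBMXL3 library, beside 11.5% and 10.1% of all genes without replicates 1 and 2. It was 7 without either WT library (10.8% and 18.9%) and 14 without either GFP library (43.2% and 43.4%). The comparisons share libraries, so the counts are not independent of each other.

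**Figure D4:**
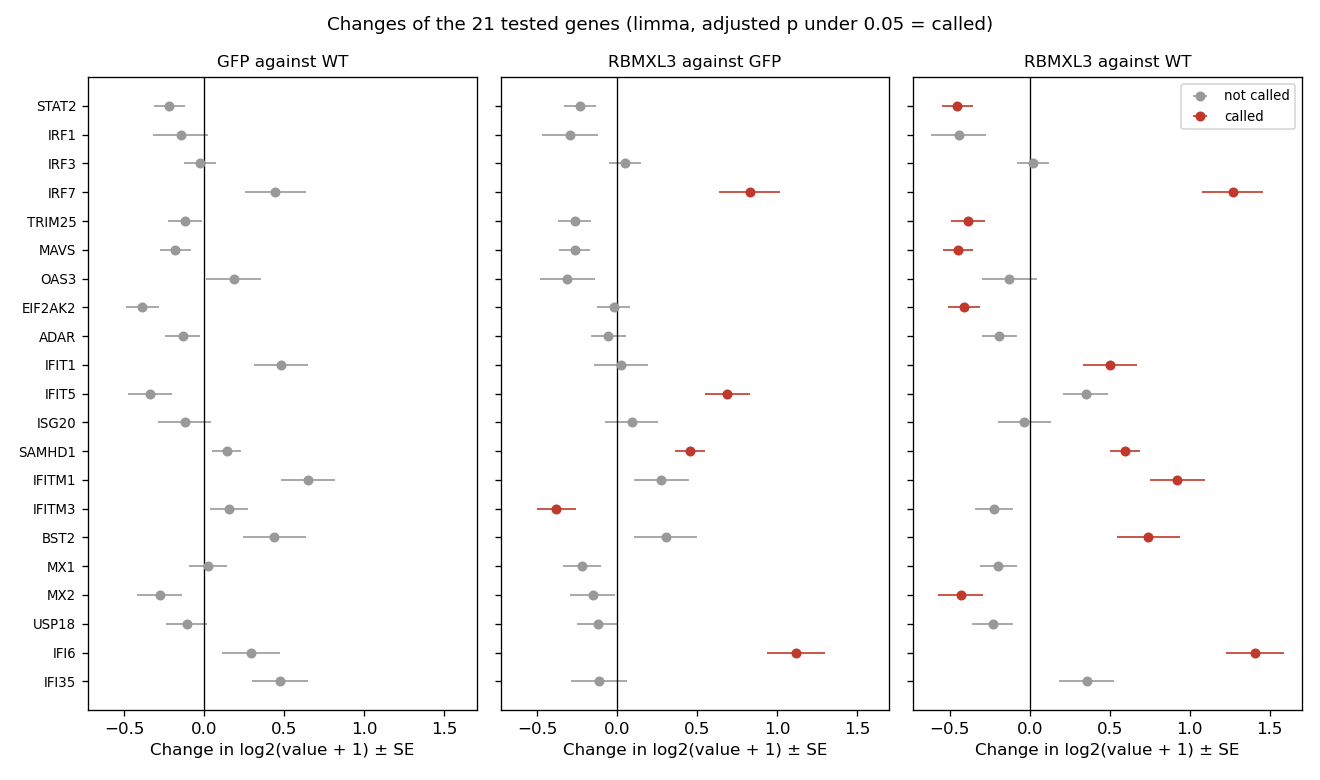
Change in log2(value + 1) with its SE for the 21 tested genes in GFP against WT (left), RBMXL3 against GFP (middle) and RBMXL3 against WT (right), red where the limma adjusted p is under 0.05. No gene is red on the left, 5 are red in the middle and 11 on the right, with IFI6 the furthest to the right at 1.12 and 1.41.

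No fall called from reads was called in the transcript table, while most rises were. In summed TPM, 5 genes were called higher against GFP (IFI6, IRF7, IFIT5, SAMHD1 and IFITM1) and 5 against WT (IFI6, IRF7, BST2, IFITM1 and SAMHD1). None was called lower in either, beside 209 of 14262 genes called lower against GFP and 644 against WT. GFP against WT had 0 limma calls in TPM, beside 0% of all genes. The median of all genes in TPM was shifted by 0.13 against GFP, 0.03 against WT and -0.09 in GFP against WT. Relative to that shift, the changes in RBMXL3 against GFP were 1.92 for IFI6, 0.89 for IRF7, 0.88 for IFIT5, 0.52 for SAMHD1 and 0.38 for IFITM1. On the same relative footing STAT2 was 0.12, TRIM25 0.18 and MAVS -0.10 against GFP, and STAT2 was -0.10, TRIM25 -0.01 and MAVS -0.31 against WT. IFIT1 could not be tested in TPM, since it stayed under the minimum of 1 TPM. Calls in TPM covered 22.7% of the 22 list genes tested in each RBMXL3 comparison, beside 6.93% of all genes against GFP (5.46% higher) and 11.5% against WT (6.97% higher). BST2, at 0.473 and 0.701 TPM in WT cells, entered the TPM test only through the groups where it is high. Of the 16 genes that also reached the minimum in reads in every group, 4 (25%) were called against GFP and 3 (18.75%) against WT. The share of all genes under that restriction was not computed.

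**Figure D5:**
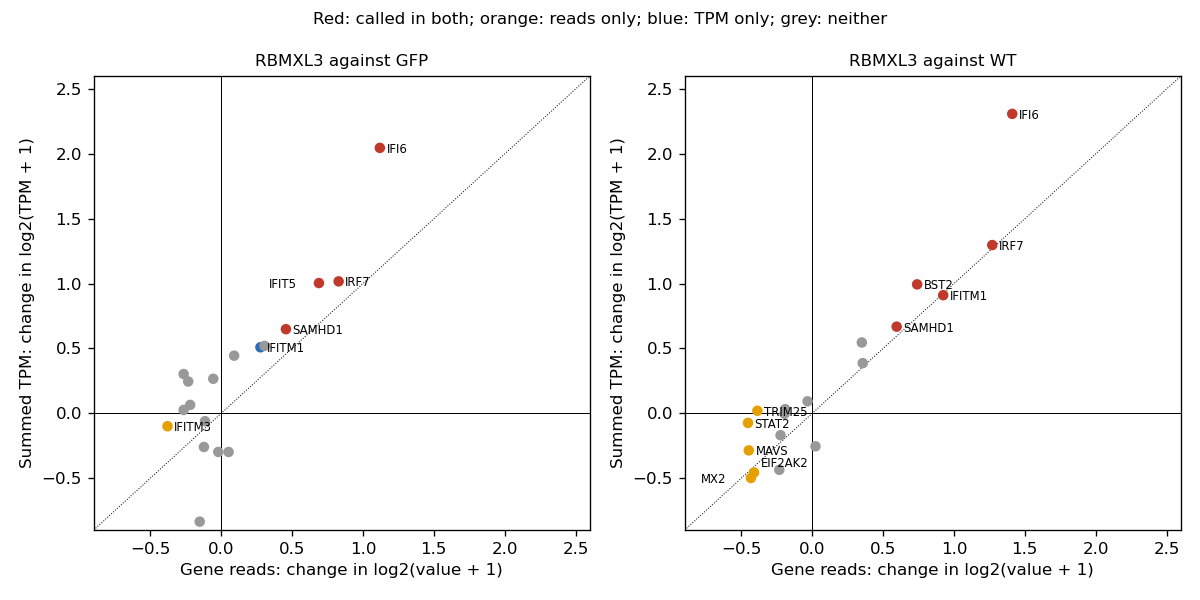
Change in log2(value + 1) from gene reads (horizontal) and from summed TPM (vertical) for genes tested in both, in RBMXL3 against GFP (left) and against WT (right); the dotted line marks equal change. Genes called in both (red) lie above 0 on both axes, and the genes called lower from reads (orange) were not called from TPM.

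RNA of the interferons themselves was near the floor. All 22 interferon genes examined had at most 3 reads in every library, and 17 had 0 reads throughout, among them IFNB1 and IFNG. Of 14 genes for receptors and JAK-STAT signalling, 13 passed the minimum. IL10RB did not, with 5 to 19 reads per library, while its transcripts summed to 14.9 to 18.3 TPM. IFNAR1 had 663 to 939 normalised reads but 0.245 to 2.64 TPM, so the levels of these receptor genes depend on the quantification. In RBMXL3 against WT, 3 of the 13 (23.1%, beside 29.9% of all genes) were lower and 0 higher. These were JAK2 by -0.56 (limma adjusted p = 0.0274), JAK1 by -0.42 (0.0061) and PTPN2 by -0.35 (0.0221). JAK2, a kinase of the interferon-gamma receptor, had 156 and 168 normalised reads in WT cells, 73.9 and 106 in GFP cells and 113 and 92.0 in RBMXL3 cells. It was the 1 gene of this group called in GFP against WT, where it fell (-0.72, limma adjusted p = 0.0418), 7.69% of the list beside 3.67% of all genes. SOCS1, an inhibitor of JAK kinases, was the 1 gene called in RBMXL3 against GFP, with -0.54 (limma adjusted p = 0.0236). That is 7.69% of the list beside 20.9% of all genes. It had 270 and 283 normalised reads in WT cells, 346 and 480 in GFP cells and 281 and 264 in RBMXL3 cells. The GFP libraries thus lay above both other groups, and RBMXL3 lay near WT.

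Of 32 other sensors, adaptors and kinases, 24 passed the minimum, and TLR8, TLR9 and ZBP1 had 0 reads. RBMXL3 against GFP called 3 (12.5%, beside 20.9% of all genes), with TRIM56 higher (0.37) and ZNFX1 (-0.40) and TRAF6 (-0.35) lower. TRIM56 had 461 and 489 normalised reads in WT cells, 374 and 376 in GFP cells and 485 and 500 in RBMXL3 cells. GFP was thus its lowest group, and WT overlapped with RBMXL3. RBMXL3 against WT called 5 (20.8%, beside 29.9%), all lower, NFKB1 (-0.58), DDX60 (-0.56) and ZNFX1 (-0.54) among them, and GFP against WT called 0. Of 48 other interferon-stimulated genes, 26 passed the minimum, and SAMD9, SAMD9L, GBP4, RTP4 and CXCL10 had 0 reads. RBMXL3 against GFP called 3 higher (LAMP3 0.74, TRIM5 0.42 and HELZ2 0.41) and 1 lower, which is 15.4%, beside 20.9%. RBMXL3 against WT called 5 higher and 5 lower (38.5%, beside 29.9%), and GFP against WT called 1 higher, LGALS3BP (0.61, limma adjusted p = 0.0408), which is 3.85%, beside 3.67%. These lists moved in both directions in RBMXL3 against GFP.

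Of 13 genes that clear or edit nucleic acid, 11 passed the minimum, and 4 of these (36.4%) were called in each RBMXL3 comparison, beside 20.9% of all genes against GFP and 29.9% against WT. XRN1, the cytoplasmic 5' exonuclease, and DICER1, which cuts double-stranded RNA, followed one pattern. XRN1 had 892 and 891 normalised reads in WT cells, 660 and 598 in GFP cells and 846 and 910 in RBMXL3 cells. DICER1 had 1775 and 2009 in WT cells, 1302 and 1365 in GFP cells and 1770 and 1721 in RBMXL3 cells. Both were lowest in GFP: they fell there against WT (-0.49 and -0.50, limma adjusted p = 0.0332 and 0.0265) and were higher in RBMXL3 against GFP (0.47 and 0.38, adjusted p = 0.0102 and 0.0191). They were the 2 genes of the list called in GFP against WT (18.2%, beside 3.67% of all genes). PNPT1, a mitochondrial RNA-degrading enzyme, was lower in RBMXL3 against GFP (-0.37, limma adjusted p = 0.0328) and against WT (-0.53, 0.0036), and DNASE2 was higher against WT (0.48, 0.0059). With edgeR the number of called genes stayed within 1.5 times in all 5 lists of related genes, but the other sensors had 1 lower gene in RBMXL3 against GFP in place of 2. The other interferon-stimulated genes had 2 higher genes in RBMXL3 against GFP in place of 3, and 4 in RBMXL3 against WT in place of 5.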

How the data were processed

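The deposited gene values are a normalised signal: the authors divided read counts by 1 size factor per library, and all 145320 nonzero values (100%, within 0.01 of a read) came out as whole reads. The deposited transcript table holds TPM, which keeps no depth. The submitters' processing notes list Trim Galore 0.6.10, STAR 2.7.11a, DESeq2 and Salmon 1.10.2 with GRCh38. The gene annotation and the strand setting of the counting are not given in the sources used here; the library kit is stranded per the labels' protocols. Genes were placed with GENCODE 29.

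Values were divided by 23.9, so that the mean column total is that of CPM, and genes at 1 or more in at least 2 libraries were kept (14292 genes). Their log2(value + 1) was fitted with limma 3.58.1 (R 4.3.3) with an intensity trend over all 6 libraries, two-sided, with Benjamini-Hochberg adjustment over all genes and a threshold of 0.05. The design had assumed CPM. As alternatives, edgeR 4.0.16 (quasi-likelihood, TMM) and DESeq2 1.42.0 were run on the recovered reads. edgeR called 2848 genes in RBMXL3 against GFP, 4157 in RBMXL3 against WT and 474 in GFP against WT, where limma called 2986, 4271 and 524. Others were a pseudocount of 0.1, no filter, a mean of at least 5, quantile normalisation, summed TPM, a replicate block and leaving out each library. The fit was tested on simulated data. The number of table columns of no sample was 0.

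The gene list and the related lists were chosen with earlier results of these data known. All 38 genes are accounted for. From each related list, at most 3 genes per comparison were named, by absolute change among called genes whose groups do not overlap. The result of a marker gene is not reported here.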

Additional observations from a re-analysis of the deposited data

How the results depend on the processing

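Leaving out 1 library gave 0 to 8 called genes in RBMXL3 against GFP, 3 to 14 in RBMXL3 against WT and 0 to 3 in GFP against WT; a lone library is then assumed to vary like the other groups. Without a filter on low values 2 genes were called in RBMXL3 against GFP, and in summed TPM 5 in RBMXL3 against WT. In GFP against WT there were 2 with DESeq2 and 4 with edgeR without a filter, the latter chosen after seeing the data. With the replicate block the counts were 5, 9 and 0. Deviations of same-numbered libraries correlated at -0.16 (WT and GFP), 0.03 (WT and RBMXL3) and -0.09 (GFP and RBMXL3), so no shared deviation by number was seen. That cannot show whether the numbers mark a shared day or batch, which the labels do not say.

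The direction turned in 20 pairs of gene and comparison, of which 1 was a called change, TRIM25 in RBMXL3 against WT, at 0.020 in summed TPM (log2). In summed TPM, RBMXL3 against GFP also turned for STAT2 (0.25), IRF3 (-0.30), MX1 (0.065), MAVS (0.026), ADAR (0.27) and TRIM25 (0.30), with all genes shifted by 0.13. RBMXL3 against WT turned for IRF3 (-0.25), ISG20 (0.093) and ADAR (0.032), and GFP against WT for IRF3 (0.044), IFITM3 (-0.069), MX1 (-0.069) and MX2 (0.34). With quantile normalisation IRF3 turned in GFP against WT (0.0092), and IFIT1 (-0.033), EIF2AK2 (0.024) and ADAR (0.067) in RBMXL3 against GFP. Leaving out 1 library, RBMXL3 against GFP ranged from -0.028 to 0.13 for IRF3, -0.10 to 0.28 for ISG20, -0.013 to 0.57 for IFITM1, -0.12 to 0.077 for EIF2AK2 and -0.19 to 0.079 for ADAR. IRF3 ranged from -0.057 to 0.10 in RBMXL3 against WT. GFP against WT ranged from -0.32 to 0.067 for ISG20, -0.023 to 0.33 for IFITM3, -0.072 to 0.12 for MX1 and -0.27 to 0.00038 for ADAR. The cause was not tested.

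Genes under the minimum had at most 28 reads in a library, so their ratios carry wide counting intervals, and 0 reads in a library allows up to 3.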

Other observations

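APOBEC3F and APOBEC3G, cytidine deaminases that restrict retroviruses, were among the related genes under the minimum of the test and were picked out after their values were seen. APOBEC3F had 8 and 4 reads in WT cells, 9 and 9 in GFP cells and 18 and 22 in RBMXL3 cells. The groups did not overlap. APOBEC3G had 0 and 2 reads in WT cells, 8 and 10 in GFP cells and 14 and 12 in RBMXL3 cells, with no overlap either. Neither was tested.

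A pair of nucleic acid enzymes had gene reads and TPM far apart. TREX1, a DNA exonuclease, had 0 reads in every library while its transcripts summed to 0.692 to 1.97 TPM. RNASEH2A, the catalytic subunit of RNase H2, had 5 to 9 reads while its transcripts summed to 85.7 to 109.9 TPM.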
